A study of Homo sapiens with 5 samples.

Results

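The genes described here drive or restrain the passage of cells from G1 into S phase: the D-type cyclins CCND1, CCND2 and CCND3, the E-type cyclins CCNE1 and CCNE2, the cyclin-dependent kinases CDK4, CDK6 and CDK2, the kinase inhibitor p27 (CDKN1B) and the retinoblastoma protein gene RB1. They were taken by symbol, and all 10 were found once each among the 58174 genes of the table. Expression was measured by RNA sequencing in Ishikawa cells, an established line of human endometrial carcinoma. In 3 libraries, called sh-LINC00958, the cells carried a lentiviral short hairpin RNA against the long non-coding RNA LINC00958, and in 2 libraries, called sh-NC, they were labelled as the negative control. Per the labels' protocols, selection with 2.5 µg/ml puromycin began 72 h after infection. The labels do not name the hairpins, and nothing in them tells whether replicate libraries were grown as separate cultures. The p-values therefore cover the spread between these libraries only, which may be technical.

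D-type cyclins bind CDK4 and CDK6 and E-type cyclins bind CDK2, and both kinase complexes phosphorylate the retinoblastoma protein, which releases E2F transcription factors. p27 blocks cyclin E-CDK2 and also binds cyclin D-CDK4 complexes. The levels of cyclin E and p27 proteins are set largely by ubiquitin-dependent breakdown, so the RNA levels given here are only part of their control. Endometrial carcinomas often carry changes in this pathway, cyclin E1 gain among them.

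Values are TPM, a transcript abundance scaled for gene length, so levels of different genes can be compared within a library. The file gives no counts, so the sequencing depth is unknown. LINC00958, the target, measured 67.2, 67.1 and 58.4 TPM in sh-LINC00958 and 119.3 and 137.4 TPM in sh-NC. The epithelial markers EPCAM, KRT8, KRT18, KRT19 and CDH1 lay between 99.4 TPM (CDH1) and 681.8 TPM (KRT8) over the libraries. KRT18 was higher at 341.8 TPM in sh-LINC00958, against 251.7 TPM in sh-NC (limma adjusted p = 0.0211, and 0.0439 with the GC and length trend taken out). KRT8 and KRT19 were higher and EPCAM lower in every sh-LINC00958 library without passing, and CDH1 overlapped. The Müllerian lineage factors PAX8 (705.8 TPM in sh-LINC00958 and 812.4 TPM in sh-NC) and SOX17 (59.6 TPM in sh-LINC00958 and 72.3 TPM in sh-NC) were lower in every sh-LINC00958 library, and passed with the GC and length trend taken out (limma adjusted p = 0.0311 and 0.0443) but not on TPM as deposited (0.0873 and 0.0974). The estrogen receptor gene ESR1 was listed at 0 in 4 of the 5 libraries and at 0.0149 TPM in the other, and the progesterone receptor gene PGR was likewise at 0 in 4 of the 5. The leukocyte and red cell markers CD3E and HBB and the fibroblast marker DCN were at 0 throughout, while the fibroblast marker COL1A1 lay between 4.33 and 5.23 TPM with groups that overlapped. COL3A1 and PDGFRB, also fibroblast or mural markers, reached at most 0.0145 and 0.176 TPM. The leukocyte markers PTPRC and CD14 reached at most 0.0758 and 0.104 TPM. The endothelial marker CDH5 averaged 1.97 TPM in sh-LINC00958 and 3.64 TPM in sh-NC with no overlap, and did not pass (log2 fold change -0.65, limma adjusted p = 0.0651), while PECAM1 (-0.15) and VWF (0.13) overlapped. The part of these marker differences in the members' results was not tested. In bulk RNA, fewer cells in a given cell cycle phase and less RNA per cell cannot be told apart.

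Of the 9 members that passed a filter on low values (mean TPM of at least 1), 5 fell in sh-LINC00958 and 0 rose, by limma on log2(TPM + 1) with Benjamini-Hochberg adjustment over 17049 genes at a threshold of 0.05. Those that fell were CCND1, CCNE1, CCNE2, CDKN1B and RB1. Over all genes tested, 5.68% were called lower and 4.12% higher. The members and the lists below were chosen with earlier results of these data known, so their comparisons with all genes are descriptions only. The kinases CDK4, CDK6 and CDK2 and the cyclin gene CCND3 did not pass, and CCND2 was not tested. All fold changes given are differences of mean log2(TPM + 1), so those of low genes are understated. An exact two-sided permutation test of 3 libraries against 2 cannot go below p = 0.1, and each of the 5 genes that fell reached that value, as did CDK4. Genes outside the members that were not called also reached it, EPCAM and KRT8 among them, so it does not set the members apart.

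**Figure D1:**
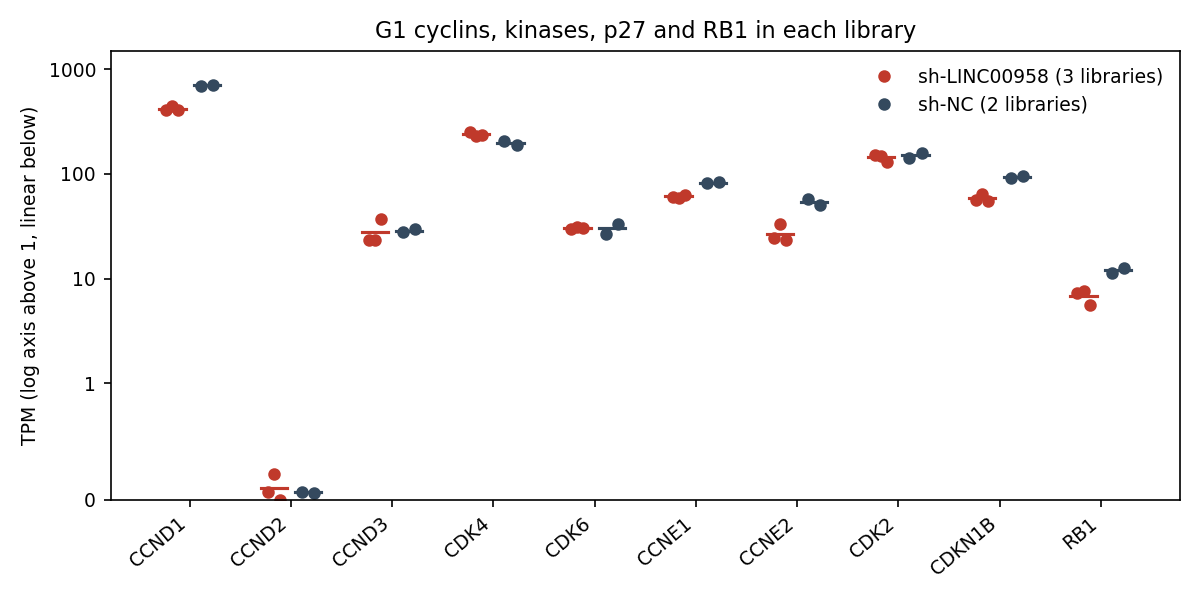
TPM of the 10 members in each library (points) with the group mean (bar), sh-LINC00958 to the left of sh-NC for each gene. The axis is logarithmic above 1 TPM and linear below. The points of the groups lie apart for CCND1, CCNE1, CCNE2, CDKN1B and RB1, where sh-LINC00958 is lower, and for CDK4, where it is higher.

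CCND1, which encodes cyclin D1, was the most abundant member in both groups and ranked 195 of all genes by mean TPM. It measured 409.2, 449.9 and 403.2 TPM in sh-LINC00958 and 697.3 and 706.8 TPM in sh-NC. All sh-LINC00958 libraries lay far below both sh-NC libraries, and replicate 2 was the highest of its group. The mean in sh-LINC00958 was 420.8 ± 25.4 TPM (SD, n = 3), 59.9% of the 702.1 ± 6.77 TPM (SD, n = 2) in sh-NC. The fitted log2 change was -0.74 ± 0.0749 (SE; 95% interval -0.92 to -0.56; limma adjusted p = 0.0103). The gene lies on the plus strand of GRCh38 chromosome 11, from 69641087 to 69654474. Its exons share 497 bases with LTO1 on the other strand, and the strand setting of the counting is not given in the sources used here, so reads there cannot be assigned with certainty. LTO1 averaged 26.9 TPM over the 5 libraries, with a log2 fold change of -0.29 (limma adjusted p = 0.107).

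CCND3, the cyclin D3 gene, had 23.5, 23.2 and 36.9 TPM in sh-LINC00958 and 27.8 and 29.8 TPM in sh-NC. The sh-LINC00958 libraries lay on both sides of the sh-NC libraries, with replicate 3 above and replicates 1 and 2 below. The fitted log2 change was -0.08 (limma adjusted p = 0.837), and its 95% interval, from -0.60 to 0.45, allows a sizeable change in either direction. The direction turned without sh-LINC00958 replicate 1 (0.025) or replicate 2 (0.033). CCND2, the cyclin D2 gene, was close to 0 in every library, with 0.0669, 0.220 and 0 TPM in sh-LINC00958 and 0.0635 and 0.0605 TPM in sh-NC. No fold is given for it. Whether CCND1 and CCND3 responded differently was not tested.

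CCNE1, the cyclin E1 gene on chromosome 19 (29811898 to 29824308, plus strand), measured 60.4, 59.1 and 63.3 TPM in sh-LINC00958 and 81.3 and 82.8 TPM in sh-NC. The groups were narrow and did not overlap. The level in sh-LINC00958 was 74.2% of that in sh-NC, and the fitted log2 change was -0.42 ± 0.0763 (SE; 95% interval -0.61 to -0.24; limma adjusted p = 0.0305). CCNE2, the cyclin E2 gene on chromosome 8 (94879770 to 94896678, minus strand), had 24.5, 33.2 and 23.1 TPM in sh-LINC00958 and 58.0 and 50.6 TPM in sh-NC. Replicate 2 of sh-LINC00958 was again the nearest to sh-NC, with a clear gap left between the groups. CCNE2 stood at 49.6% of its sh-NC level, with a fitted log2 change of -0.9997 ± 0.172 (SE; 95% interval -1.42 to -0.58; limma adjusted p = 0.0282).

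The exons of CCNE2 share 1629 of their 4397 bases with INTS8, an Integrator complex gene on the opposite strand. INTS8 had 51.2, 56.7 and 51.0 TPM in sh-LINC00958 and 76.9 and 64.9 TPM in sh-NC. It was lower in every sh-LINC00958 library but did not pass (log2 fold change -0.41, limma adjusted p = 0.0653). AC087752.4, an annotated antisense transcript within CCNE2, had 0.956, 1.34 and 0.797 TPM in sh-LINC00958 and 3.56 and 3.77 TPM in sh-NC, and fell (log2 fold change -1.21, limma adjusted p = 0.0217). AC087752.4 shares 4 exon bases with CCNE2. If the counting did not use strand, reads of CCNE2 and of these partners cannot be told apart where they overlap.

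The promoter windows of CCNE1, CDKN1B and CDK4 are shown, from 250 bases before to 50 after the RefSeq start (GRCh38.p14). They were chosen because CCNE1 and CDKN1B fell while CDK4 had higher values in every sh-LINC00958 library without passing. Capitals mark GGGCGG, the core of GC boxes bound by SP1-like factors, CCAAT, the core bound by NF-Y, and CACGTG, the E-box bound by MYC-family and USF proteins, each on either strand. No 2 of these marked matches overlap.
CCNE1 promoter, chr19:29811741-29812040, plus strand: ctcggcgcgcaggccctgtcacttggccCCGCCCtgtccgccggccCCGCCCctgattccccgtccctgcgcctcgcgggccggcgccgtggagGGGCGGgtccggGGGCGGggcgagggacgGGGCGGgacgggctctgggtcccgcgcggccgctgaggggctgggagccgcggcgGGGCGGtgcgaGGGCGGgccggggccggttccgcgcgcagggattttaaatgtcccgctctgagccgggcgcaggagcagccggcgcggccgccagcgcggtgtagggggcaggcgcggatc
CDKN1B promoter, chr12:12717118-12717417, plus strand: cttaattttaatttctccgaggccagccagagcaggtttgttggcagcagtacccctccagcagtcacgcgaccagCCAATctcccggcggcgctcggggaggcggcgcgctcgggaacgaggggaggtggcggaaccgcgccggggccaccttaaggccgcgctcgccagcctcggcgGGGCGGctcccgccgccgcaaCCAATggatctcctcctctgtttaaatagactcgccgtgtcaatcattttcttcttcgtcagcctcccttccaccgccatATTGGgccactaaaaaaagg
CDK4 promoter, chr12:57752261-57752560, minus strand: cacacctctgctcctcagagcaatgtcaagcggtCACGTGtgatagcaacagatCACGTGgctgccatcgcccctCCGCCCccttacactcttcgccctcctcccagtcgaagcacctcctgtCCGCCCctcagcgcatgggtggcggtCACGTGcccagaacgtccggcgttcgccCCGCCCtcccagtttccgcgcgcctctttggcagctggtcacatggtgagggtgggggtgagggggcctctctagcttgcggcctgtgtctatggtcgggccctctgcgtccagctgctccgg
The CCNE1 window held 7 GGGCGG matches and neither of the other motifs. The CDKN1B window held 3 CCAAT matches and 1 GGGCGG match, and the CDK4 window held 3 CACGTG and 3 GGGCGG matches. Over all 35116 windows of the RefSeq table, GGGCGG was present in 45.0%, CCAAT in 34.6% and CACGTG in 7.26%. TTTNNCGC, a core of E2F sites searched on both strands, was in 6.89% of all windows and in none of these 3, which says only that these letters are not in these windows. Of the 10 members, 6 had a window in the table. The windows of CDK6 and CCND3, which were not called, are not shown. Of the CDK6 windows, 1 held 3 GGGCGG matches and 1 CACGTG match, and the other held none of the motifs. The CCND3 windows held 0, 4 and 5 GGGCGG matches and 1, 1 and 0 CCAAT matches. The window of RB1 (from 48476200) lies inside the gene, away from its annotated start at 48303726, and was not used. The CDKN1B and CDK4 windows also lie within their annotated genes. CDKN1B, on the plus strand, begins at 12715058, and CDK4, on the minus strand, reaches 57756013.

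None of the kinase genes passed the test. CDK4, the main partner of cyclin D1 in epithelial cells, had 251.9, 231.0 and 234.5 TPM in sh-LINC00958 and 207.9 and 189.4 TPM in sh-NC. All sh-LINC00958 libraries were above both sh-NC libraries, a pattern seen in 24.4% of all genes tested. The fitted log2 change, 0.27 with a 95% interval of 0.07 to 0.46, did not pass (limma adjusted p = 0.0884). The exons of CDK4 share 1369 bases with TSPAN31 on the opposite strand, which averaged 16.1 TPM over the 5 libraries (log2 fold change -0.14, limma adjusted p = 0.609). CDK6, the other D-type cyclin partner, had 30.1, 31.1 and 30.5 TPM in sh-LINC00958, between the 26.9 and 33.4 TPM of sh-NC. Its fitted log2 change was 0.026 (95% interval -0.25 to 0.31; limma adjusted p = 0.900), and without sh-NC replicate 1 it was -0.12. CDK2, the partner of the E-type cyclins, had 152.3, 149.7 and 128.7 TPM in sh-LINC00958 and 141.8 and 157.9 TPM in sh-NC. PMEL, on the opposite strand, shares 89 exon bases with it, and averaged 4.41 TPM over the libraries (-0.43, limma adjusted p = 0.156). The groups overlapped for CDK2, with a fitted log2 change of -0.06 (95% interval -0.32 to 0.19; limma adjusted p = 0.722). This CDK2 change turned to 0.013 without sh-LINC00958 replicate 3 and 0.014 without sh-NC replicate 2. The intervals of CDK6 and CDK2 leave out a fall of the size seen for CCND1, but not changes within their bounds.

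CDKN1B, which encodes p27, fell as well. The gene lies on chromosome 12 (12715058 to 12722371, plus strand) and measured 56.2, 64.9 and 54.9 TPM in sh-LINC00958 and 92.1 and 95.3 TPM in sh-NC. The groups stood clearly apart, with sh-LINC00958 at 62.6% of the sh-NC level. The fitted log2 change was -0.67 ± 0.0991 (SE; 95% interval -0.91 to -0.43; limma adjusted p = 0.0217). CDK4 (57747727 to 57756013, minus strand), CDK2 (55966769 to 55972784, plus strand) and CCND2 (4273772 to 4305350, plus strand) also lie on chromosome 12, and of these 4 genes CDKN1B alone was called and CCND2 was not tested.

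RB1, the pocket protein that the G1 kinases phosphorylate, was the least abundant of the tested members. It had 7.34, 7.61 and 5.63 TPM in sh-LINC00958 and 11.3 and 12.7 TPM in sh-NC. Every sh-LINC00958 value was below every sh-NC value, and sh-LINC00958 replicate 3 was the lowest. The level was 57.1% of that in sh-NC, with a fitted log2 change of -0.74 ± 0.158 (SE; 95% interval -1.12 to -0.35; limma adjusted p = 0.0437). The gene covers chromosome 13 from 48303726 to 48599436 on the plus strand.

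Non-overlapping groups with sh-LINC00958 lower were seen in 5 of the 9 tested members, against 25.5% of all genes tested. Each of the 5 calls was lost when sh-LINC00958 replicate 1 or either of the sh-NC libraries was left out, at limma adjusted p-values from 0.0545 (CCND1) to 0.202 (RB1), and 4 of them, all except CCND1, without sh-LINC00958 replicate 3. The 5 folds kept their direction in each of these fits. The share of all genes tested that was called lower was then 0.316% without sh-LINC00958 replicate 1, 0.0704% without sh-NC replicate 1, 0.0352% without sh-NC replicate 2 and 0.872% without sh-LINC00958 replicate 3. Without sh-LINC00958 replicate 2, which on the first principal component (51.1% of variance) lay closer to sh-NC than replicates 1 and 3 did, all 5 members were called, at limma adjusted p-values from 0.0150 to 0.0453, beside 8.74% of all genes.

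**Figure D2:**
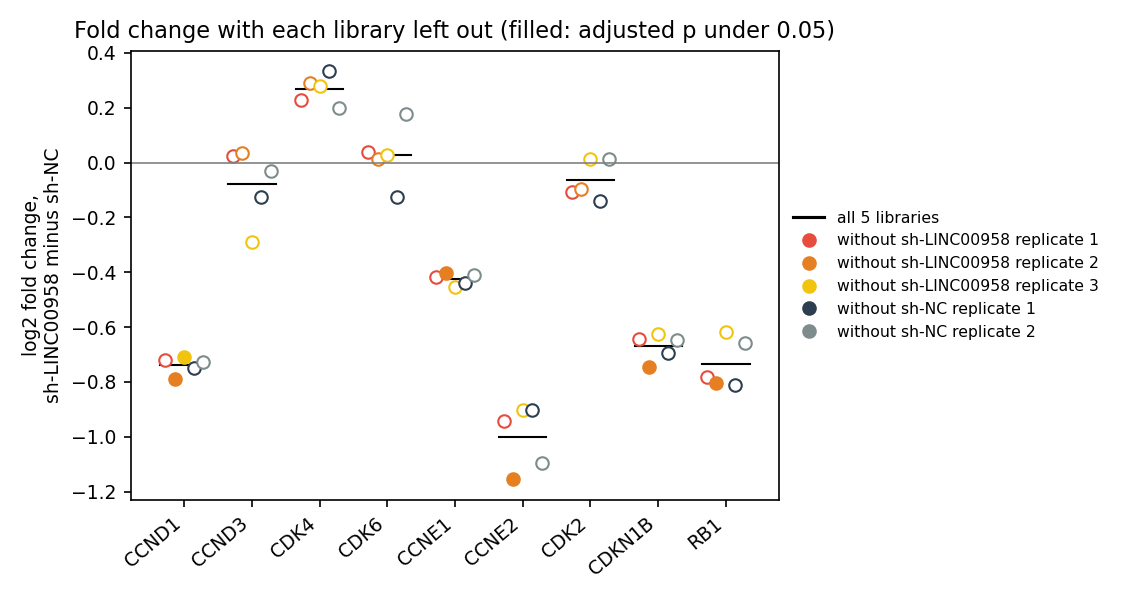
Log2 fold change of the 9 tested members, sh-LINC00958 minus sh-NC, with all 5 libraries (line) and with each library left out (points, filled where the limma adjusted p is under 0.05). The points of CCND1, CCNE1, CCNE2, CDKN1B and RB1 all lie below 0, while those of CCND3, CDK2 and CDK6 lie on both sides of it.

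Summed over genes within each library, D-type cyclin RNA was 432.8, 473.4 and 440.1 TPM in sh-LINC00958 and 725.1 and 736.7 TPM in sh-NC. CCND1 made up 91.6% to 95.05% of that sum in sh-LINC00958 and 95.95% and 96.2% in sh-NC. E-type cyclin RNA came to 84.9, 92.3 and 86.4 TPM in sh-LINC00958 and 139.3 and 133.5 TPM in sh-NC. CCNE2 stood lower than CCNE1 did relative to sh-NC. The CCNE1 share of the E-type sum was thus 71.2%, 64.02% and 73.3% in sh-LINC00958 and 58.4% and 62.1% in sh-NC. These shares are from TPM as deposited. With the GC and length trend taken out, the log2 fold changes were closer, at -0.63 for CCNE2 and -0.53 for CCNE1. CDK4 and CDK6 together gave 269.7 ± 10.7 TPM (SD, n = 3) in sh-LINC00958 and 228.9 ± 8.50 TPM (SD, n = 2) in sh-NC. There were accordingly 1.67 ± 0.135 D-type cyclin transcripts per CDK4 or CDK6 transcript in sh-LINC00958 and 3.20 ± 0.154 in sh-NC. E-type cyclin transcripts per CDK2 transcript were 0.615 ± 0.0570 in sh-LINC00958 and 0.914 ± 0.0971 in sh-NC. CDKN1B transcripts per summed D-type and E-type cyclin transcript were 0.109, 0.115 and 0.104 in sh-LINC00958 and 0.107 and 0.1095 in sh-NC, with overlapping groups. These sums and ratios are descriptions of members whose values are given above, with no test.

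**Figure D3:**
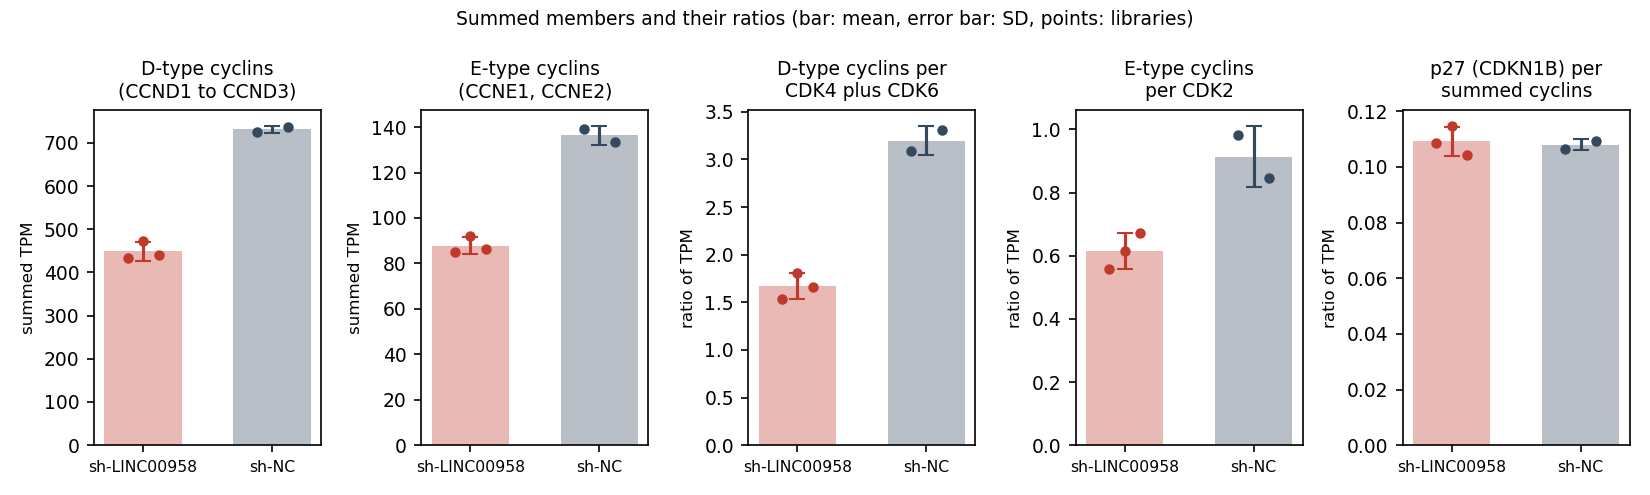
Summed TPM of D-type and E-type cyclins and ratios of TPM between members, with the mean (bar), SD (error bar) and each library (point), sh-LINC00958 left and sh-NC right. Cyclin sums and cyclin-to-kinase ratios are lower in every sh-LINC00958 library, and the ratio of CDKN1B to the summed cyclins overlaps between the groups.

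The order of the members by mean TPM was the same at its ends and differed in the middle. CCND1, CDK4 and CDK2 came first in both groups, with ranges that did not meet. In sh-LINC00958, CCNE1 and CDKN1B followed with overlapping ranges, and then CDK6, CCND3 and CCNE2, at 30.6, 27.9 and 26.9 TPM, each overlapping the next. In sh-NC, CDKN1B, CCNE1 and CCNE2 followed in that order with separate ranges, and CDK6 and CCND3, at 30.2 and 28.8 TPM, overlapped. RB1 and CCND2 were lowest in both.

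The GC content of the transcript was related to the fold change across the table, and the members that fell differ in it. The genes tested were divided into 4 bins of nearly equal number by the GC content of the longest transcript. CCNE2 (36.9% GC) and RB1 (37.3%) were in the lowest bin, where 15.6% of genes were called lower and the median log2 fold change was -0.29. CDKN1B (47.7%) was in the second bin, with 4.59% called lower, and CCND1 (50.3%) and CCNE1 (52.9%) in the third, with 1.81% called lower and a median log2 fold change of 0.09. With the trend of each library on GC content and length taken out, CCND1 (-0.79, limma adjusted p = 0.00837), CCNE1 (-0.53, 0.0199) and CDKN1B (-0.68, 0.0169) were still called, while CCNE2 (-0.63, 0.0512) and RB1 (-0.37, 0.139) were not. In that fit 2.78% of all genes were called lower and 2.55% higher. CDK6, also in the lowest bin at 39.5% GC, then had a fitted log2 change of 0.29 (95% interval 0.03 to 0.55; limma adjusted p = 0.162), and that of CDK4 was 0.15 (limma adjusted p = 0.284).

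**Figure D4:**
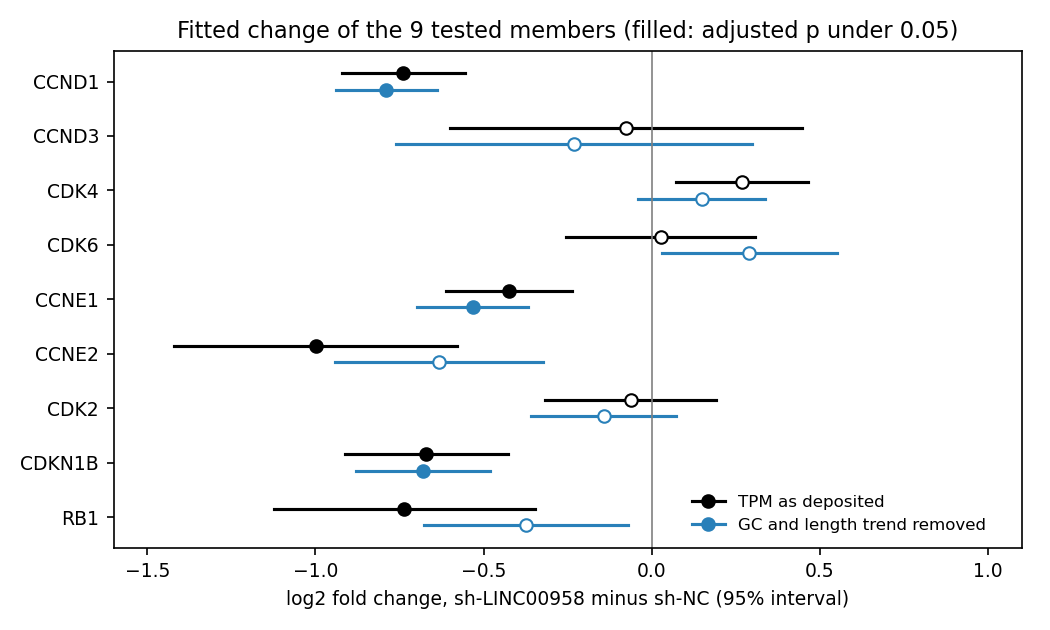
Log2 fold change, sh-LINC00958 minus sh-NC, with its 95% interval for the 9 tested members, from TPM as deposited (black) and with the GC and length trend taken out (blue). Filled points have a limma adjusted p under 0.05; CCND1, CCNE1 and CDKN1B are filled in both, CCNE2 and RB1 only before the removal.

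Other genes of the G1/S pathway were taken in 5 lists by role. Of 41 genes listed 39 were tested, without ESR1 and FOXO4, which did not reach a mean of 1 TPM. In all, 1 rose, 0 fell and 38 did not pass, beside 4.12% called higher and 5.68% called lower among all genes tested. The single call is thus no more than the share over all genes would give. The median log2 fold change was -0.03, against 0.00141 over all genes tested and -0.42 over the 9 tested members. Non-overlapping groups were seen in 11 with sh-LINC00958 lower and 10 with it higher, shares near the background of 25.5% and 24.4%.

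Among 13 genes for the turnover of G1 cyclins and p27, UBAC1 rose. It encodes the non-catalytic subunit of the KPC ubiquitin ligase, which marks p27 for breakdown, and had 61.7, 65.5 and 66.03 TPM in sh-LINC00958 and 46.6 and 46.2 TPM in sh-NC (log2 fold change 0.46 ± 0.0785, SE, limma adjusted p = 0.0277). All sh-LINC00958 values were above both sh-NC values. With the GC and length trend taken out its log2 fold change was 0.28 and the call was lost (limma adjusted p = 0.0949). It was also lost without sh-LINC00958 replicate 1 (0.0921) or 3 (0.0741), without sh-NC replicate 1 (0.136) or 2 (0.148), and in limma without the trend (0.0546), while the log2 fold change with 1 library left out stayed between 0.45 and 0.49. The catalytic subunit of the same ligase, RNF123, had 34.5, 24.8 and 24.4 TPM in sh-LINC00958 and 19.2 and 18.2 TPM in sh-NC, and did not pass (log2 fold change 0.54, limma adjusted p = 0.0959). SKP2, the F-box protein of the main p27 ligase, had a fitted log2 change of -0.035 (95% interval -0.26 to 0.19; limma adjusted p = 0.827), and 0.15 with the GC and length trend taken out.

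None of the 6 other CDK inhibitors passed. The smallest p-values were those of CDKN2C (p18), with 152.8 ± 14.4 TPM (SD, n = 3) in sh-LINC00958 and 191.5 ± 4.67 TPM (SD, n = 2) in sh-NC (log2 fold change -0.33, limma adjusted p = 0.0863), and of CDKN1C (p57; -0.46, limma adjusted p = 0.132). Both folds lay further below 0 once the GC and length trend was taken out, at -0.50 for CDKN2C and -0.65 for CDKN1C. Neither gene was called in that fit (limma adjusted p = 0.0538 and 0.0782). CDKN1A, the p21 gene, spanned 63.7 and 20.7 TPM between the sh-NC libraries alone, so its interval was wide (-0.64 to 1.48). Among 7 pocket proteins and MuvB core subunits, which repress cell cycle genes in quiescent cells, LIN54 (-0.34, limma adjusted p = 0.0825) and LIN9 (-0.51, limma adjusted p = 0.101) had the smallest p-values, and none passed. With the GC and length trend taken out, LIN54 was at -0.053 and LIN9 at -0.33, again not called. Of the RB1 relatives, RBL1 had a fitted log2 change of -0.17 (95% interval -0.46 to 0.12). That of RBL2 was -0.0010 (95% interval -0.25 to 0.24). With the trend taken out both were above 0, at 0.079 and 0.13, and not called.

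Of 5 genes for CDK activation, CDC37, the kinase co-chaperone that loads CDK4, and CDC25A, the phosphatase that activates CDK2, had higher values in every sh-LINC00958 library without passing (0.56 and 0.33, limma adjusted p = 0.0651 and 0.0697). The upstream regulators of CCND1 and CDKN1B, 8 tested of 10 listed, had no call either. ERBB2, a receptor tyrosine kinase, had 126.8, 123.5 and 166.5 TPM in sh-LINC00958 and 87.03 and 95.1 TPM in sh-NC (0.59, limma adjusted p = 0.0587), and AKT2, a kinase of the PI3K pathway, had a log2 fold change of 0.19 (limma adjusted p = 0.131). With the GC and length trend taken out these were 0.36 for CDC37, 0.25 for CDC25A, 0.44 for ERBB2 and 0.035 for AKT2, none of them called.

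**Figure D5:**
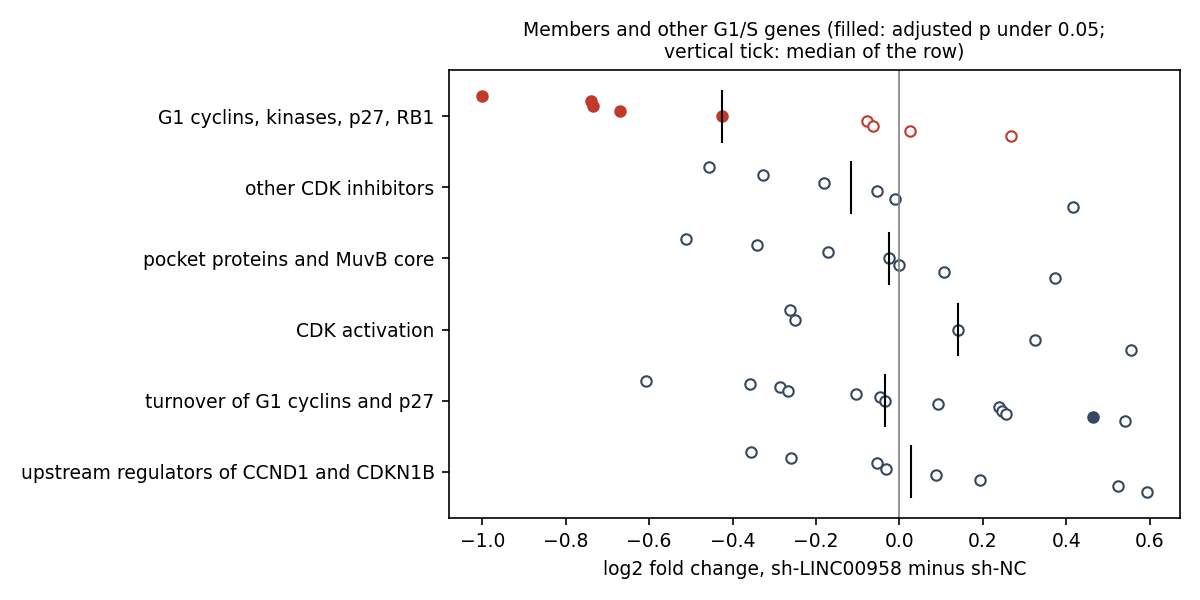
Log2 fold change, sh-LINC00958 minus sh-NC, of the 9 tested members (red) and of 39 other G1/S genes in 5 lists (dark), with the median of each row as a vertical tick. Filled points have a limma adjusted p under 0.05: 5 members below 0 and UBAC1 above 0.

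The genes whose levels over the 5 libraries were most like those of each member that fell were sought among 11457 other genes with a mean TPM of at least 5, by the root mean square difference of log2(TPM + 1) centred on the sh-NC mean. For CCND1 these were CEP120, a centriole gene (difference 0.0225), and NHLRC2 (0.0271). For CDKN1B they were TOP2A, the mitotic topoisomerase (0.0191), and KIF11, the spindle kinesin (0.0213). CCNE1 was nearest to ACLY, the ATP citrate lyase gene (0.0190), and SLC10A4 (0.0197). CCNE2 was nearest to THAP5 (0.0756) and the kinase gene NEK7 (0.0757), and RB1 to COMMD8 (0.0490) and the kinetochore gene NUF2 (0.0509). These likenesses are descriptions over 5 libraries. The measure includes the size of the change, so genes with a similar fold rank as near. Whether they are regulated together was not tested.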

How the data were processed

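Gene TPM from 5 RNA sequencing libraries (3 sh-LINC00958, 2 sh-NC) was deposited by the authors in a single table. Per the submitters' processing notes, the tools were FastQC 0.11.2 and Trimmomatic 0.36, then HISAT2 2.0 and StringTie 1.3.3b on GRCh38. No source used here gives the annotation release, strand setting or filters. TPM is relative within a library and holds no depth, so counting error is not given.

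All 17049 genes with a mean TPM of at least 1 were log2-transformed after adding 1 and fitted in R 4.3.3 using limma 3.58.1 (eBayes with a mean-variance trend, two-sided, Benjamini-Hochberg adjustment). The fit was tested on simulated data. Coordinates, overlaps, GC content and length came from GENCODE release 29 (GRCh38), matched by gene ID, and promoter windows from RefSeq. For the GC correction, splines with 5 degrees of freedom in GC content and log2 length were removed from each library. Named genes were all members, each list's genes past the threshold (otherwise its 2 smallest p-values), 2 genes of nearest pattern per called member, and genes sharing exons with a member; RNF123, SKP2, CDKN1A, RBL1 and RBL2 were named beyond that rule after their values were seen. The members and lists were chosen with earlier results of these data known. The alternatives were other pseudocounts, filters, scalings and variance models, the GC correction, a replicate block and leaving out each library.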

Additional observations from a re-analysis of the deposited data

How the results depend on the processing

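The 5 members called lower kept their direction under all 16 alternatives. They lost calls with no filter on low values (CCNE1 -0.42, CCNE2 -0.9997, CDKN1B -0.67 and RB1 -0.74, limma adjusted p from 0.0536 to 0.106; 1 member, CCND1, still called), in limma without the trend (CCNE1 -0.42 and RB1 -0.74; 3 still called) and with the GC and length trend taken out (CCNE2 -0.63 and RB1 -0.37; 3 still called). Leaving out 1 library gave -0.79 to -0.71 for CCND1, -0.45 to -0.40 for CCNE1, -1.16 to -0.90 for CCNE2, -0.74 to -0.63 for CDKN1B, -0.81 to -0.62 for RB1, -0.29 to 0.033 for CCND3, -0.14 to 0.014 for CDK2 and -0.12 to 0.18 for CDK6, with 0 to 5 members called lower. CDK4 was not called under any alternative (log2 fold change 0.15 to 0.33, limma adjusted p from 0.0710). Where 1 sh-NC library was left, it was assumed to vary like the sh-LINC00958 libraries. The largest of the counts below came without sh-LINC00958 replicate 2, where both sh-NC libraries were kept. These counts cover every fit with 1 library of either group left out. Over all genes, 10 to 905 were then called higher and 6 to 1491 lower, and in the pathway lists 0 to 1 in each direction.

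All genes called numbered 207 higher and 269 lower with no filter, 371 and 518 without the trend, and 433 and 473 after the GC and length removal. In the pathway lists 2 rose with a mean TPM of at least 5 and 2 with quantile normalization (over all genes 839 and 855 were then called higher, against 702), and 0 without the trend and 0 after the removal. The ratio of CDKN1B to summed cyclins differed by 0.00115 (sh-LINC00958 minus sh-NC), from -0.00163 to 0.00361 with 1 library left out.

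Same-numbered libraries of the groups showed little shared deviation (r = 0.00131 for number 1 and 0.0497 for number 2, across genes). The deviations of the 2 sh-NC libraries from their mean mirror each other. The r values are therefore not separate checks and cannot exclude a pairing. The labels state no pairing, and the main fit did not take the numbers as pairs. With the replicate number as a block, which leaves sh-LINC00958 replicate 3 without weight, CCND1 was -0.71, CCNE1 -0.45, CCNE2 -0.90, CDKN1B -0.63, RB1 -0.62 and CDK2 0.013. None of the members was then called (0 lower), nor any gene of the pathway lists (0 higher), among 0 higher and 2 lower calls in all. At an unknown depth, low levels such as that of CCND2 cannot be given a limit.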
